A study of Mus musculus with 28 samples.

Results

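The comparison described here asked whether the difference between macrophages that had taken up regulatory T cells (Treg) and macrophages that had taken up conventional CD4+ T cells (Tconv) depended on the cytokine present. The members were the 16 libraries of phagocytic macrophages among the 28 libraries of the series, in 4 groups of 4: IFN-γ with Treg uptake, IFN-γ with Tconv uptake, IL-10 with Treg uptake and IL-10 with Tconv uptake. All 16 held polyA RNA of wild-type mouse macrophages grown from bone marrow, kept for 48 h with 50 ng/mL of the cytokine beside T cells driven into apoptosis with ATP and NAD+, and then sorted on the fluorescent anti-CD4 label (BV421 or Ax647) of the engulfed T cells. The other 12 libraries (non-phagocytic and unpolarised macrophages) entered no value below unless named. The quantity reported is the difference of differences on the log2 scale, (IFN-γ Treg minus IFN-γ Tconv) minus (IL-10 Treg minus IL-10 Tconv). A negative value means that the Treg-minus-Tconv difference was lower under IFN-γ than under IL-10, and a positive value that it was higher. The labels do not say whether the 4 libraries of a group came from separate mice or cultures, so the p-values measure the spread between these libraries, which may be technical. Each group held 2 libraries of each dye by the sample titles, but for all 8 Treg libraries the title and the library name give opposite dyes, and replicates are named here by their titles.

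Removal of apoptotic cells by macrophages, called efferocytosis, runs through receptors and bridging proteins that recognise phosphatidylserine, then through lysosomal digestion and export of the cholesterol taken in, and it usually dampens inflammatory gene expression. IFN-γ signals through JAK1 and JAK2 to GAS elements in DNA and induces IRF1, and this response drives guanylate-binding proteins, antigen presentation and nitric oxide synthesis. IL-10 signals through JAK1, TYK2 and STAT3 and restrains that programme. Treg are CD4+ T cells that carry the transcription factor Foxp3 and suppress immune responses.

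The libraries differed in depth and spread along the cytokine axis. An estimate of what 1 read is worth, read from the steps between low TPM values, put the IFN-γ Treg libraries at 11.2% to 20.5% of the depth of the deepest library of the series, IFN-γ Tconv at 20.9% to 24.2%, IL-10 Treg at 49.1% to 65.7% and IL-10 Tconv at 75.6% to 89.9%. The root mean square SD between replicates on the log2 scale was 0.475, 0.412, 0.245 and 0.212 in that order, larger under IFN-γ than under IL-10. The 10 macrophage markers summed to 16820 to 21630 TPM in the 16 libraries, and none of the 10 was at 0 throughout a group. The 23 T cell markers summed to 842 to 1296 TPM in the IFN-γ Treg libraries, 869 to 1066 in IFN-γ Tconv, 345 to 387 in IL-10 Treg and 242 to 299 in IL-10 Tconv. Foxp3 separated the kinds of T cell only under IL-10, with 4.21, 5.27, 5.78 and 6.34 TPM after Treg uptake and 2.86, 2.97, 3.43 and 3.66 after Tconv uptake. Under IFN-γ its values overlapped, with 10.4, 11.5, 13.4 and 14.3 TPM after Treg uptake and 10.1, 12.8, 15.3 and 17.6 after Tconv uptake, and its difference of differences was -0.66 ± 0.22 (SE; limma adjusted p = 0.066), which did not pass. In bulk RNA, fewer cells of a type and less RNA per cell cannot be told apart.

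Of 12918 genes tested, 1771 (13.7%) had a difference of differences past an adjusted p of 0.05 (limma, Benjamini-Hochberg over all genes tested). The value was positive for 574 (4.44%) and negative for 1197 (9.27%), which are called higher and lower below. The split moved with the scaling of the libraries: 32.4% of called genes were higher as reported, 19.2% without scaling (340 higher, 1427 lower), 42.5% with median-of-ratios scaling (774 higher, 1046 lower) and 45.5% after a correction for GC content and transcript length (766 higher, 918 lower). The largest changes were mostly negative, since 457 called genes differed by at least 1 on the log2 scale, 68 higher and 389 lower. The contrast was carried by the IFN-γ side: among the 1771 called genes, the Treg-minus-Tconv difference was larger in size under IFN-γ for 1678 (94.7%) and under IL-10 for 93, and its median size was 0.569 under IFN-γ and 0.0684 under IL-10. Over all genes tested these medians were 0.238 and 0.0798. The spread between replicates was also larger under IFN-γ, and its part in these sizes was not tested. The genes were called on the difference between these 2 values, so their sizes are a description. Across all 12918 genes their Pearson correlation was 0.0376 and their Spearman correlation 0.0331, as a description over genes, which are not independent.

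**Figure D1:**
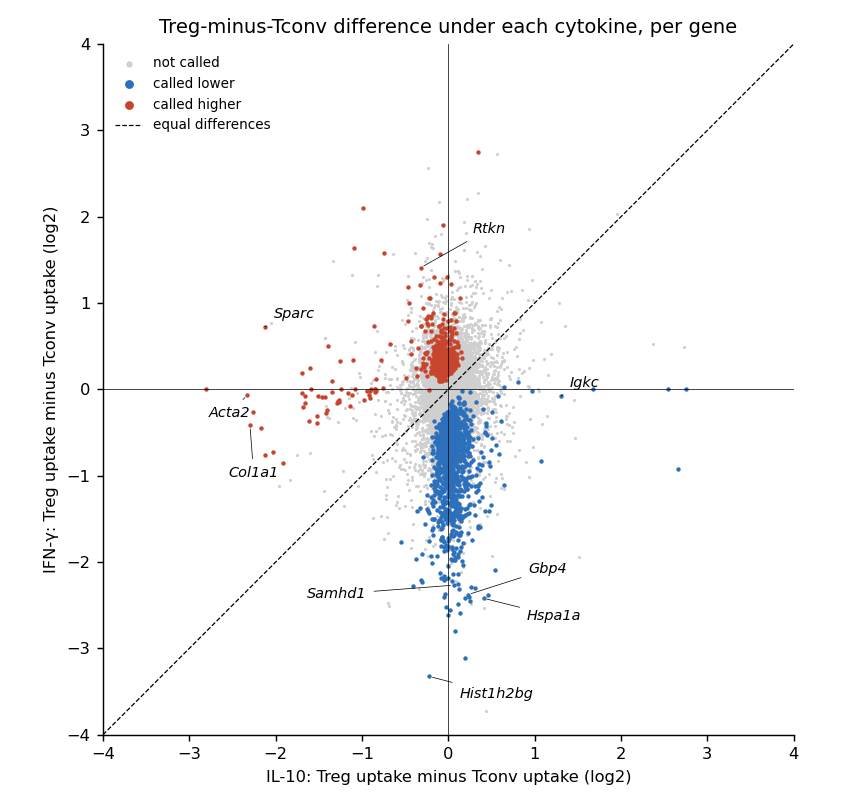
Each point is a gene. The horizontal axis gives the Treg-minus-Tconv difference under IL-10 and the vertical axis the same difference under IFN-γ, both in log2 units, with called genes in red (higher) or blue (lower); 2 genes beyond 4 on an axis are not drawn. Most called genes lie along the vertical axis, where the IL-10 difference is near 0, and a smaller arm of higher genes, with Sparc, Acta2 and Col1a1, lies along the negative horizontal axis.

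One group varied along the same direction as the contrast. In 58.0% of the 1197 called lower genes, replicate BV421-2 of IFN-γ Tconv had the highest TPM of its group, against 27.1% of all genes tested. Replicate BV421-1 had the lowest in 63.1%, against 33.1%. The called higher genes showed the reverse. In these BV421-2 was the lowest in 50.7%, against 26.8% of all genes tested, and BV421-1 the highest in 39.5%, against 24.3%. Values are given below in ascending order within a group, and "lost in 5 of 16" after a value means that 5 of the 16 fits that each left out 1 library put the gene at an adjusted p of 0.05 or more. A count "of 11 settings" gives the same for the 11 fits that kept every library and changed the scaling, pseudocount, filter, model, variance weights, dye covariate or GC and length correction (10 where a filter of 5 TPM left the gene out). Fits with a replicate block are not in this count, and their losses are given in the closing section. Shares of a list that were called are to be read against the 13.7% of all genes tested. Without BV421-2 the count was 1505 (548 higher, 957 lower), and without BV421-1 it was 2080 (741 higher, 1339 lower). With 2 libraries per group of 1 dye (by the titles) the counts were 2 for BV421 and 280 for Ax647, and 2244 and 2366 genes had an unadjusted p under 0.05. In each of the other 3 groups no library was highest in more than 32.8% or lowest in more than 32.8% of the called genes of either direction.

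Genes of both IFN-γ and IL-10 signalling were among the lower genes. Of 23 genes of IFN-γ and IL-10 signalling that were tested, 7 were called lower and 1 higher, or 34.8% against 13.7% of all genes tested, and the list's median was -0.14, against 0.0038 over all genes tested. The lower genes included the transcription factors Stat2, Irf1 and Irf2 (-0.81). On the IL-10 side, the kinase Tyk2 (-1.09), the transcription factor Stat3 (-0.81) and the STAT3 target Sbno2 (-0.43) were also lower. The higher gene was Il10rb, the shared chain of the IL-10 receptor. Irf1, a factor that IFN-γ induces, was at 88.5, 96.9, 115 and 119 TPM in the IFN-γ Treg libraries and 199.5, 236, 244 and 295 TPM in IFN-γ Tconv. Under IL-10 it was at 65.99, 66.7, 68.7 and 71.8 TPM after Treg uptake and 66.8, 67.5, 68.6 and 70.2 TPM after Tconv uptake. All 4 IFN-γ Tconv libraries lay above all other 12, the IFN-γ Treg libraries came next, and the IL-10 groups overlapped. The difference of differences of Irf1 was -1.14 ± 0.15 (SE; limma adjusted p = 0.000127). Stat2, a factor of the type I interferon response, differed in one respect, since after Treg uptake under IFN-γ it was below both IL-10 groups. Its values were 18.7, 21.7, 25.5 and 26.2 TPM in IFN-γ Treg, 63.97, 73.2, 77.99 and 92.05 in IFN-γ Tconv, 32.04 to 36.4 in IL-10 Treg and 31.9 to 33.6 in IL-10 Tconv, and its difference of differences was -1.68 ± 0.16 (SE; limma adjusted p = 1.1e-05). The receptor genes were not called lower: Ifngr1 had 0.19 and Ifngr2 0.12, both not called, and Il10rb had 0.39 ± 0.09 (SE; limma adjusted p = 0.0093). The feedback inhibitors Socs1 (-0.21) and Socs3 (0.10) were not called.

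The guanylate-binding proteins (GBP) and immunity-related GTPases (IRG), which attack the vacuoles of intracellular microbes, were the list with the most negative median. Of 18 members tested, 10 were called lower and none higher (55.6%), 17 had a value below 0, and the median was -0.88. Gbp4 led the list, at 11.1, 13.01, 13.6 and 15.3 TPM in IFN-γ Treg and 53.9, 74.9, 81.6 and 100.5 TPM in IFN-γ Tconv, while both IL-10 groups lay between 1.14 and 3.08 TPM. Its difference of differences was -2.6 ± 0.27 (SE; limma adjusted p = 1.7e-05). In the GENCODE annotation of GRCm38, Gbp4 (chr5:105115767-105139586, minus strand) overlaps Gbp9 (chr5:105077630-105139539, minus strand) on the same strand, so reads of the 2 genes may be shared. Gbp9 was at 5.74, 7.85, 8.09 and 8.18 TPM in IFN-γ Treg and 19.6, 20.3, 21.9 and 30.3 in IFN-γ Tconv, with a difference of differences of -1.65 ± 0.21 (SE; limma adjusted p = 0.000107). Gbp2 (chr3:142620602-142638008, plus strand) was at 47.9, 54.1, 73.5 and 75.3 TPM in IFN-γ Treg, 153, 197, 204 and 246 in IFN-γ Tconv, 10.49, 11.7, 11.7 and 12.9 in IL-10 Treg and 7.75, 8.31, 9.54 and 9.63 in IL-10 Tconv. The groups did not overlap under either cytokine and went opposite ways, with Gbp2 lower after Treg uptake under IFN-γ and higher after Treg uptake under IL-10. Its difference of differences was -1.97 ± 0.22 (SE; limma adjusted p = 3.1e-05). Gbp8 (-1.45), Iigp1 (-1.32), Gbp6 (-1.12), Irgm1 (-1.05), Gbp2b (-1.02; lost in 1 of 10 settings), Igtp (-0.75) and Ifi47 (-0.47; lost in 9 of 16, 4 of 11 settings) made up the rest of the called members; Gbp2b had means under 1 TPM in both IL-10 groups. The 8 members that were not called included Gbp7 (-0.15), Irgm2 (-0.18) and Gvin1 (0.02). Many GBP and IRG genes are near-copies of each other, so the division of reads among them is uncertain.

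The promoters of Irf1 and Stat2 are shown because the factors of this pathway are known to act on them and both genes were called lower. Each sequence is the 250 bases before the RefSeq start (GRCm38.p6), 5′ to 3′ on the gene's strand. Capitals mark matches to TTCNNNGAA (GAS, a palindrome) or to GAAANNGAA and its reverse complement TTCNNTTTC (the core of the ISRE), searched on both strands. Of 32851 RefSeq promoter windows of the same length, 7.02% held the GAS letters and 7.13% the ISRE letters.
Irf1 (chr11:53769764-53770013, plus strand): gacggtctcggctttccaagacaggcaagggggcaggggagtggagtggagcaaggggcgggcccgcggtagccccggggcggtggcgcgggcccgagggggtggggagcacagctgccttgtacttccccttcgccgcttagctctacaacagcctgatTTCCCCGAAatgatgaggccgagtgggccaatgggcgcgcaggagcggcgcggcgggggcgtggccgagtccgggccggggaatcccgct
Stat2 (chr10:128270248-128270497, plus strand): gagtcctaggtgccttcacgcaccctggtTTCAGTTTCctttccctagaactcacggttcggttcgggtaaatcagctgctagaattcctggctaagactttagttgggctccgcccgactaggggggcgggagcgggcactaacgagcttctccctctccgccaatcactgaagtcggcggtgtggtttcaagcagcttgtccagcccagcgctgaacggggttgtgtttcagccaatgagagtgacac
The Irf1 window held 1 GAS match, and the Stat2 window 1 ISRE match. Irf1 has a second RefSeq start, whose window held neither. A promoter was found by symbol for 75.6% of called higher, 71.4% of called lower and 72.4% of all genes tested. Among those, ISRE letters were present in 8.29% of higher, 9.12% of lower and 7.81% of all genes tested, and GAS letters in 5.3%, 6.9% and 7.17%. A match is a description of the letters and not a bound site.

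Genes of antigen presentation shared the negative direction, unevenly among members. Of 18 genes of MHC class I and the immunoproteasome, 9 were called lower and none higher (50%; median -0.33). Nlrc5, the transactivator of MHC class I genes, was at 19.5, 24.5, 25.8 and 27.7 TPM in IFN-γ Treg, 59.6, 61.7, 75.8 and 85.4 in IFN-γ Tconv and 25.3 to 33.3 and 26.3 to 33.4 in IL-10 Treg and Tconv. The IFN-γ groups did not overlap and the IL-10 groups did, and the difference of differences was -1.45 ± 0.19 (SE; limma adjusted p = 9.7e-05). The heavy chain gene H2-K1 was far more abundant, at 3077, 3448, 3626 and 3717 TPM in IFN-γ Treg and 5961, 6969, 7252 and 8189 in IFN-γ Tconv, against 3229 to 3321 and 3294 to 3438 under IL-10, with a difference of differences of -0.91 ± 0.11 (SE; limma adjusted p = 4.5e-05). H2-Q4 (-0.90), H2-Q6 (-0.73), Psmb9 (-0.55), H2-Q7 (-0.51), Tap1 (-0.51), H2-T23 (-0.40) and H2-T22 (-0.27) were also called, and the class I genes are near-copies that may share reads. The light chain B2m (-0.13), the heavy chain H2-D1 (0.02) and the proteasome activators Psme1 (-0.16) and Psme2 (-0.15) were not called.

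Of 13 MHC class II genes, 7 were called lower and none higher (53.8%; median -0.37). Ciita, the master regulator of this class, was at 1.82, 2.97, 3.4 and 4.83 TPM in IFN-γ Treg and 8.52, 8.93, 10.3 and 10.8 in IFN-γ Tconv, and at 6.44, 7.5, 7.78 and 7.87 and 7.99, 8.36, 8.67 and 9.16 TPM in IL-10 Treg and Tconv. The groups did not overlap under either cytokine, Treg uptake was the lower one in both, and the difference of differences was -1.13 ± 0.25 (SE; limma adjusted p = 0.0057). H2-Oa, which restrains peptide loading, had -1.46 ± 0.29 (SE; limma adjusted p = 0.00283), at 2.33 to 3.56 TPM in IFN-γ Treg and 5.35 to 10.9 TPM in IFN-γ Tconv. Cd74, the invariant chain, was abundant at 1939 to 2298 TPM in IFN-γ Treg, 2434 to 2782 in IFN-γ Tconv, 2878 to 2971 in IL-10 Treg and 3152 to 3342 in IL-10 Tconv. It was lower after Treg uptake under both cytokines, with log2 differences of -0.22 under IFN-γ and -0.16 under IL-10, and its difference of differences of -0.05 ± 0.08 (SE; limma adjusted p = 0.742) did not pass. The count for this class depended on 1 library: it was 4 without IFN-γ Tconv BV421-2. It was also 4 with no filter on low values, where more genes were tested. The class II chain H2-Ab1 (-0.37; lost in 11 of 16, 3 of 11 settings) and the promoter-binding factor Rfx5 (-0.79; lost in 12 of 16, 5 of 11 settings) were called but not in most fits with 1 library fewer.

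**Figure D2:**
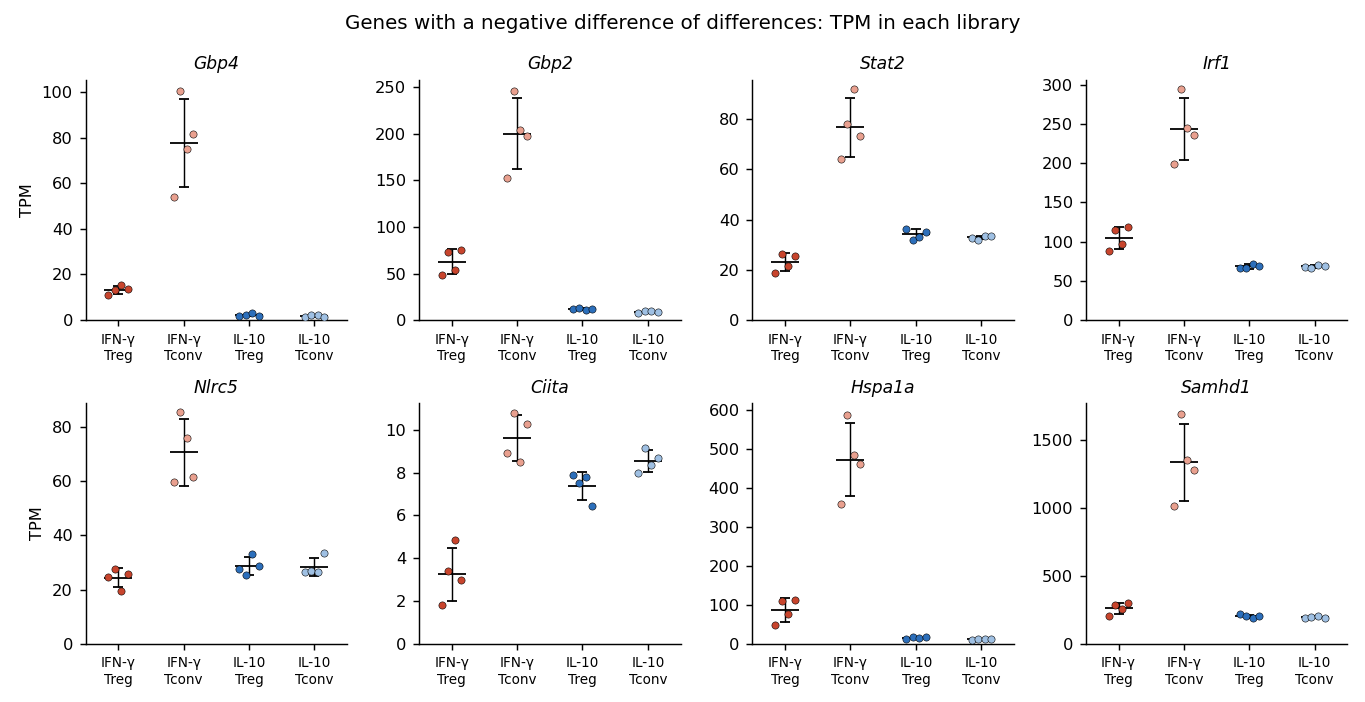
Each panel is a gene, each point a library, the bar the group mean and the whisker 1 SD (n = 4); the vertical axis is TPM from 0. In all 8 genes the IFN-γ Tconv libraries are above the IFN-γ Treg libraries, and the IL-10 groups are close together; for Ciita the IL-10 groups also lie near the IFN-γ Tconv level.

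Antiviral genes of the type I interferon response followed in part. Of 25 tested, 6 were called lower and none higher (24%; median -0.27): Mx2 (-1.5; lost in 6 of 16, 3 of 10 settings), Dhx58 (-1.34), Usp18 (-1.27), Oas3 (-1.01), Trim30a (-0.71) and Ifit2 (-0.49; lost in 4 of 16, 1 of 11 settings). Dhx58, an RNA sensor, was at 20, 20.7, 22.01 and 23.9 TPM in IFN-γ Treg and 44.4, 55.7, 56.4 and 62.7 in IFN-γ Tconv, with 21.4 to 28.8 and 21.7 to 24.3 TPM under IL-10. Its limma adjusted p was 3.9e-05. Isg15 (-0.14), Ifit1 (-0.17) and Bst2 (0.002), common reporters of this response, were not called. Samhd1, a dNTP hydrolase that restricts viruses and stood outside the lists, was among the 12 most negative genes named, and the most abundant of them in IFN-γ Tconv. It (chr2:157097533-157135265, minus strand) was at 206, 256, 289 and 296 TPM in IFN-γ Treg and 1014, 1276, 1354 and 1694 in IFN-γ Tconv. The IL-10 libraries lay between 187 and 216 TPM in both groups, so that IFN-γ Treg overlapped IL-10 Treg, and only IFN-γ Tconv stood apart from the other 3 groups. The difference of differences was -2.33 ± 0.18 (SE; limma adjusted p = 2.0e-06).

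Surface and secreted products of the same programme were mixed. Among 16 checkpoint and costimulatory genes, 2 were called lower and 2 higher (25%). Cd274, which encodes the inhibitory ligand PD-L1, was at 113, 115, 118 and 122 TPM in IFN-γ Treg and 157, 174, 177 and 189.9 in IFN-γ Tconv, against 122 to 128 and 117 to 126 under IL-10, and its difference of differences was -0.55 ± 0.08 (SE; limma adjusted p = 0.00016). Tnfrsf14, the receptor HVEM, had -1.32 ± 0.13 (SE; limma adjusted p = 1.4e-05), with 36.01 to 51.5 TPM in IFN-γ Treg and 98.3 to 110.2 in IFN-γ Tconv. The higher genes were Nectin2 (0.65) and Vsir (0.30), and both were higher in IL-10 Tconv than in IL-10 Treg with no overlap. For both, the Treg-minus-Tconv difference was positive under IFN-γ and larger in size there than under IL-10. Cd80 (0.25), Cd86 (0.01) and Cd40 (0.11) were not called. None of the 14 cytokine and effector enzyme genes tested was called by limma, and 4 had an unadjusted p under 0.05; their median was -0.22. Il10 was at 1.43 to 2.27 TPM in IFN-γ Treg, 1.21 to 2.66 in IFN-γ Tconv, 1.39 to 2.28 in IL-10 Treg and 1.2 to 1.96 in IL-10 Tconv, all low and overlapping. Nos2 and Arg1 did not reach 1 TPM in 4 of the 16 libraries and were not tested. Of 15 chemokines 3 were called (20%). Ccl5 was called lower (-0.83), and Pf4 (0.60) and Cxcl2 (0.76; lost in 7 of 16, 1 of 11 settings) were called higher. Ccl5 went opposite ways, from 375 to 469 TPM in IFN-γ Tconv down to 295 to 347 in IFN-γ Treg, and from 38.2 to 54.8 TPM in IL-10 Tconv to 54.1 to 72.9 in IL-10 Treg, where the groups overlapped. Cxcl9 (-0.96) and Cxcl10 (-0.80), chemokines that draw T cells and are classical IFN-γ targets, were not called. The call on Cxcl9 turned on 1 library: IFN-γ Treg Ax647-2 had 31.5 TPM and the other 3 of its group 6.72 to 12.4, and without that library its limma adjusted p was 0.0117. Of 16 Fc receptor and complement genes, 4 were called lower and 3 higher (43.8%). Complement gave C2 (-1.33; lost in 1 of 10 settings), Cfb (-1.08; lost in 11 of 16, 7 of 11 settings) and C3 (-0.49; lost in 4 of 16, 2 of 11 settings) lower, and the C3a receptor gene C3ar1 (0.42), properdin (Cfp, 0.27; lost in 6 of 16, 2 of 11 settings) and the complement receptor subunit Itgam (0.42) higher; C2 had means under 1 TPM in both IL-10 groups.

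Heat shock genes held 2 of the most negative values. Of 20 heat shock genes, 7 were called lower and 1 higher (40%; median -0.24). Hspa1a and Hspa1b encode the same inducible HSP70 chaperone. Hspa1a (chr17:34969190-34972156, minus strand) was at 48, 76.95, 111 and 112 TPM in IFN-γ Treg, 358, 462, 485 and 589 in IFN-γ Tconv, 12.97, 15.4, 16.9 and 17.5 in IL-10 Treg and 9.26, 11.7, 11.98 and 13.3 in IL-10 Tconv. Hspa1b (chr17:34956436-34959238, minus strand) was at 70.3, 108, 157 and 166 TPM in IFN-γ Treg, 508, 640.4, 707 and 789 in IFN-γ Tconv, 16.4 to 21.3 in IL-10 Treg and 10.8 to 16.01 in IL-10 Tconv. For both genes every IFN-γ Tconv library was above every other library, and all IFN-γ libraries were above all IL-10 libraries. The differences of differences were -2.83 ± 0.32 (SE; limma adjusted p = 3.5e-05) for Hspa1a and -2.85 ± 0.31 (SE; limma adjusted p = 2.6e-05) for Hspa1b. The genes are near-copies that can share reads, so these are not independent measurements. Their promoters are shown because the pair moved together, with capitals at the GAANNTTC pair of inverted heat shock units; the other orientation searched, TTCNNGAA, did not occur in either window and occurs in 7.17% of all.
Hspa1a (chr17:34972157-34972406, minus strand): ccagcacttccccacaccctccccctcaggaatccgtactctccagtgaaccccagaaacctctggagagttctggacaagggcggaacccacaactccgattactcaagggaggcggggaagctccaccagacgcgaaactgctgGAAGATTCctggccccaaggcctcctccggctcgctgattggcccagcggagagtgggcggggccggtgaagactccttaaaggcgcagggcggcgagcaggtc
Hspa1b (chr17:34959239-34959488, minus strand): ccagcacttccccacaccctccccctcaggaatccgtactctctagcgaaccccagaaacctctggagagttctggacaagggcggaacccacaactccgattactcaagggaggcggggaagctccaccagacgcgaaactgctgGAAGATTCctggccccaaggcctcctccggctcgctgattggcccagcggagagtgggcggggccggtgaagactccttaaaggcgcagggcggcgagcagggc
The 250 bases before the RefSeq starts differ at 3 positions between the genes. The letters GAANNTTC occur in 6.69% of all promoter windows, in 5.53% of those of called higher genes, 5.96% of called lower and 6.18% of all genes tested. The co-chaperone Dnaja1 was at 52.4, 55.3, 61.2 and 63.2 TPM in IFN-γ Treg and 109.7, 111, 112 and 121 in IFN-γ Tconv, and its difference of differences was -0.94 ± 0.12 (SE; limma adjusted p = 9.7e-05). Hsph1 (-0.93; lost in 6 of 16, 2 of 11 settings), Hspa8 (-0.59), Dnajb1 (-0.57; lost in 12 of 16, 6 of 11 settings) and Hsp90ab1 (-0.29) were also lower. The mitochondrial chaperones Hspd1 (-0.05), Hspe1 (-0.02) and Hspa9 (0.08) were not called, and Hspa5, the chaperone of the endoplasmic reticulum, was higher (0.30; lost in 1 of 11 settings). Among 26 immediate early genes 5 were called (19.2%). Klf6 was the lower one, at 112, 115, 119 and 132 TPM in IFN-γ Treg, 255, 289.8, 294 and 356 in IFN-γ Tconv and 110.1 to 120.5 and 101 to 108 under IL-10, with -1.4 ± 0.12 (SE; limma adjusted p = 2.9e-06). Junb (0.23; lost in 3 of 16, 3 of 11 settings), Dusp1 (0.32; lost in 1 of 11 settings), Ier3 (0.36; lost in 4 of 16) and Ier2 (0.40; lost in 1 of 11 settings) were higher, and Fos (0.29), Jun (0.16) and Egr1 (-0.07) were not called.

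The remaining most negative genes belonged to several functions. Hist1h2bg (chr13:23571396-23572013, plus strand), a histone H2B gene, had the most negative value of the named genes with reads in every group. It was at 1.32, 2.51, 2.52 and 4.8 TPM in IFN-γ Treg and 28.02, 30.2, 41.2 and 47.1 in IFN-γ Tconv, while 3.9 to 7.35 and 5.49 to 8.46 TPM overlapped under IL-10, and its difference of differences was -3.1 ± 0.36 (SE; limma adjusted p = 4.3e-05). Hist2h2be followed at -2.17 ± 0.34 (SE; limma adjusted p = 0.000464). Of 27 replication-dependent histone genes tested, of 70 in the list, 3 were called lower and none higher (11.1%, under the 13.7% of all genes tested). The other 24 were not called. The median of the 27 was -0.43, with 20 values below 0 and 7 above. Of the 27, 11 had means under 1 TPM in both IL-10 groups. Of 37 cell cycle genes, only Aurka was called (2.7%), higher at 0.77 (lost in 10 of 16, 4 of 10 settings), and their median was -0.01. Histone mRNAs mostly lack polyA tails, and the libraries were made from polyA RNA. Racgap1, a GTPase-activating protein of cytokinesis, had -2.2 ± 0.26 (SE; limma adjusted p = 5.1e-05), with 6.8 to 12.7 TPM in IFN-γ Treg and 34.6 to 51.7 in IFN-γ Tconv. Tspoap1 had -2.37 ± 0.27 (SE; limma adjusted p = 3.9e-05), with 5.51 to 10.9 and 35.2 to 51.3 TPM in these groups. Zmiz1os1, a non-coding transcript opposite Zmiz1, had -2.55 ± 0.41 (SE; limma adjusted p = 0.000573), with 1.6 to 6.77 and 17.8 to 31.6 TPM. In Ccdc73, 3 of 4 IFN-γ Treg libraries were at 0 and the fourth at 3.24 TPM, and IFN-γ Tconv was at 2.78, 7.9, 8.65 and 11.9 TPM, so the IFN-γ groups overlapped. Predicted-gene or pseudogene names made up 182 of the 1197 lower genes and 20 of the 574 higher genes. The share of such names over all genes tested was not counted, so these counts are a description. By annotation, 83.6% of lower, 97.6% of higher and 87.5% of all genes tested were protein-coding.

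Ribosomal protein genes made up 68 of the 574 higher genes, with small values of similar size. Of 82 cytosolic ribosomal protein genes, 68 were called higher (82.9%) and none lower, all 82 had a value above 0, and the median was 0.25 (range 0.04 to 0.36). Rpl32, of the large subunit, was at 3494, 3553, 3616 and 3684 TPM in IFN-γ Treg, 3059, 3070, 3084 and 3119 in IFN-γ Tconv, 2193, 2297, 2343 and 2347 in IL-10 Treg and 2337, 2358, 2397 and 2412 in IL-10 Tconv, with 0.34 ± 0.05 (SE; limma adjusted p = 0.000127). The IFN-γ groups did not overlap, and the IL-10 groups did. Without scaling, 46 of the 82 were called higher and the median was 0.18, and with median-of-ratios scaling 75 and 0.30. Of 77 nuclear genes of the respiratory chain, 9 were called higher and 1 lower, or 13%, which is close to the 13.7% of all genes tested; the median was 0.18. This count was 19 higher with median-of-ratios scaling, 15 after the GC and length correction, 5 without scaling and 5 without IL-10 Tconv Ax647-2. Uqcr11, a subunit of complex III, had 0.45 ± 0.10 (SE; limma adjusted p = 0.00445). Of 13 mRNAs made in the mitochondria 2 were called (15.4%): mt-Co1 (-0.30; lost in 1 of 11 settings) and mt-Atp8 (-0.28; lost in 3 of 16, 4 of 11 settings) were lower. After the GC and length correction neither was called; mt-Co1 was at -0.11 (limma adjusted p = 0.136), and mt-Atp8 turned to 0.33 (limma adjusted p = 0.109). In glycolysis, 8 of 19 genes were called higher and 3 lower (57.9%; median 0.21). The higher ones were the glucose transporter Slc2a1 (0.54) and the enzymes Eno1 (0.33), Ldha (0.31), Aldoa (0.30), Tpi1 (0.26; lost in 8 of 16, 3 of 11 settings), Pgam1 (0.24), Pgk1 (0.23) and Pkm (0.21; lost in 1 of 11 settings). The lower ones were the hexokinase Hk3 (-1.36), the regulator Pfkfb3 (-0.56) and the transcription factor Hif1a (-0.65). Hk3 was at 175, 184, 193 and 212 TPM in IFN-γ Treg and 395, 490.4, 515 and 552 in IFN-γ Tconv, and its limma adjusted p was 4.5e-06. Ldha was at 238, 247, 248 and 256 TPM in IFN-γ Treg, 215, 218, 229 and 234 in IFN-γ Tconv, 485, 504, 504 and 505 in IL-10 Treg and 518, 533, 538 and 546 in IL-10 Tconv, so that Treg uptake was the higher group under IFN-γ and the lower under IL-10, with no overlap in either.

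Among called genes of uptake and digestion most were higher, and the receptor kinase Mertk was lower. Of 23 efferocytosis genes, 6 were called higher and 1 lower (30.4%; median 0.13). Mertk, which senses bridged phosphatidylserine, was at 13.1, 15.5, 15.6 and 16.8 TPM in IFN-γ Treg, 19.6, 25.2, 25.8 and 27.97 in IFN-γ Tconv, 30.3, 30.4, 30.96 and 31.5 in IL-10 Treg and 25.7, 26.7, 27.5 and 28.6 in IL-10 Tconv. It was lower after Treg uptake under IFN-γ and higher after Treg uptake under IL-10, without overlap in either, and its difference of differences was -0.76 ± 0.13 (SE; limma adjusted p = 0.000999). The related kinases Axl (-0.16) and Tyro3 (0.42) were not called. The higher genes were the integrin subunits Itgav (0.64) and Itgb5 (0.40; lost in 5 of 16, 1 of 11 settings), the bridging protein Thbs1 (0.52) and the complement C1q chains C1qa (0.39), C1qb (0.22) and C1qc (0.39). Itgav was at 25.3, 26.7, 26.9 and 32.04 TPM in IFN-γ Treg and 16.7, 19.1, 20.96 and 22.1 in IFN-γ Tconv, against 36.6 to 38.4 and 37.5 to 42 under IL-10, with 0.64 ± 0.12 (SE; limma adjusted p = 0.00155). Thbs1 came from the IL-10 side, at 375, 378, 380.2 and 380.4 TPM in IL-10 Treg and 480, 487, 489 and 491 in IL-10 Tconv, while the IFN-γ groups overlapped at 52.9 to 66.8 and 53.2 to 63.05 TPM, and its difference of differences was 0.52 ± 0.08 (SE; limma adjusted p = 0.000678). The scavenger receptor Cd36 was higher after Treg uptake under both cytokines, by 0.39 and 0.24, and its difference of differences of 0.15 was not called.

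Of 50 lysosome genes, 11 were called higher and 4 lower (30%), with a median of 0.03. Without scaling 7 were called higher and 5 lower, and the median turned to -0.04. The higher ones included cathepsins and other hydrolases, Ctsl (0.35), Lgmn (0.31), Hexa (0.27), Ctss (0.27) and Ctsd (0.23). Ctsl was at 1470, 1532, 1549 and 1590 TPM in IFN-γ Treg and 1177, 1268, 1292 and 1312 in IFN-γ Tconv, with 0.35 ± 0.07 (SE; limma adjusted p = 0.00442). The lower ones were the calcium channel Mcoln1 (-1.05), the enzyme Gnptab (-0.79), which tags hydrolases for the lysosome, the phosphatase Acp2 (-0.45; lost in 5 of 16, 3 of 11 settings) and the membrane protein Laptm5 (-0.24; lost in 9 of 16, 3 of 11 settings). Among 17 genes of LXR and cholesterol efflux 5 were called (29.4%). Pltp (0.47), Apoe (0.37) and Fabp5 (0.26) were higher, and Nceh1 (-0.51; lost in 12 of 16, 2 of 11 settings) and Npc2 (-0.22; lost in 1 of 11 settings) lower. Pltp, a phospholipid transfer protein, was at 830.3, 862, 896 and 907 TPM in IFN-γ Treg, 702, 732, 753 and 781 in IFN-γ Tconv, 2287, 2327, 2338 and 2364 in IL-10 Treg and 2509, 2593, 2632 and 2676 in IL-10 Tconv, with opposite, non-overlapping differences and 0.47 ± 0.05 (SE; limma adjusted p = 3.9e-05). The efflux pump Abca1 (0.32) and Abcg1 (-0.06) were not called. Of 24 cholesterol synthesis genes, Nsdhl (-0.69) and Insig1 (-0.41; lost in 5 of 16, 1 of 11 settings) were lower and none higher (8.33%; median 0.06). The macrophage markers themselves moved: 7 of 10 were called higher and 1 lower (80%; median 0.24), among them Itgam (0.42), Csf1r (0.34), Cd14 (0.33) and Lyz2 (0.26), and Mertk was the lower one. Their summed TPM was 21120 to 21630 in IFN-γ Treg, 16820 to 19190 in IFN-γ Tconv, 18430 to 19050 in IL-10 Treg and 17990 to 18360 in IL-10 Tconv. The part of this difference in the results for other genes was not tested.

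**Figure D3:**
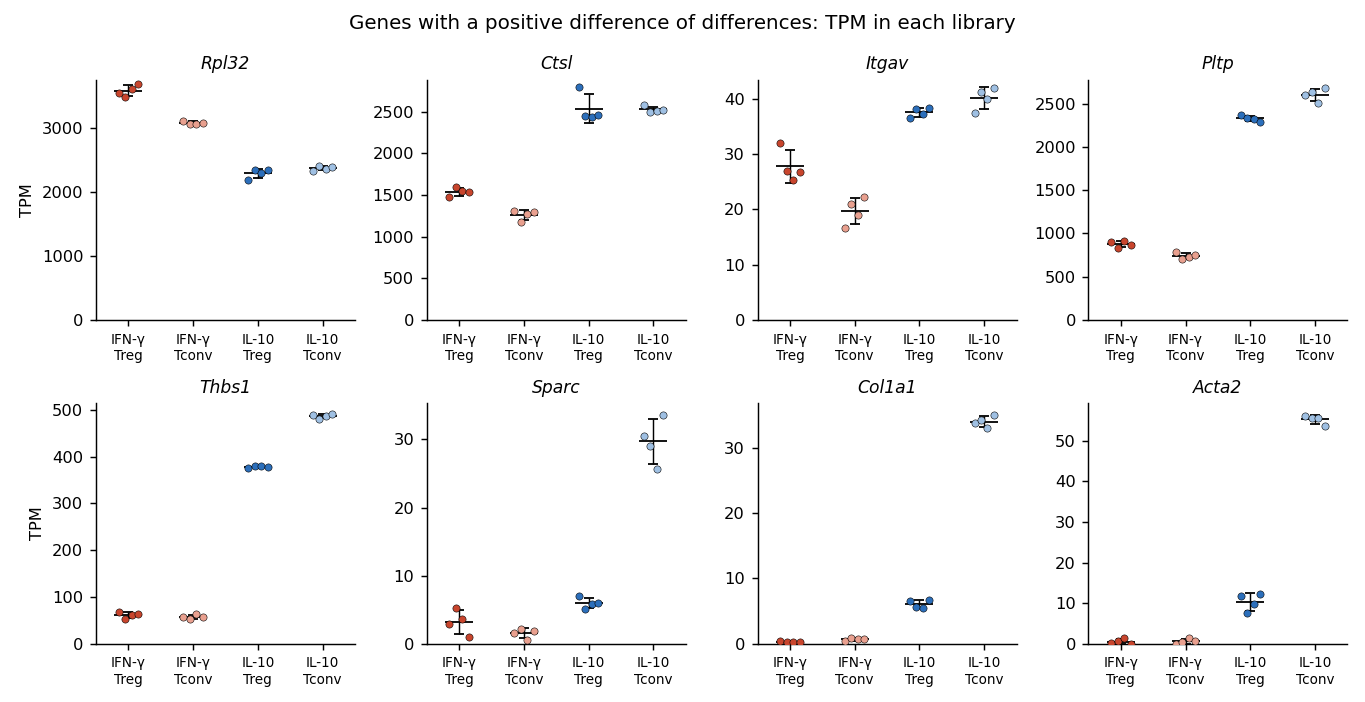
Each panel is a gene, each point a library, the bar the group mean and the whisker 1 SD (n = 4); the vertical axis is TPM from 0. In Rpl32, Ctsl and Itgav the IFN-γ groups separate, in Pltp both cytokines separate in opposite directions, and in Thbs1, Sparc, Col1a1 and Acta2 the separation is between the IL-10 groups.

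Matrix and contractile genes of stromal cells were lower after Treg than after Tconv uptake under IL-10 and near the floor under IFN-γ. Of 14 stromal markers tested, 8 had means under 1 TPM in both IFN-γ groups, where the values come close to 0 on the log2(TPM + 1) scale. Their difference of differences then mostly restates the difference under IL-10, through which they passed the filter on low values. The 9 of 14 called higher, and the list's median of 1.23, are therefore given as a description and support nothing. With a pseudocount of 0.1 in place of 1, 2 of the 14 were called, Col1a1 and Sparc. The summed TPM of the 17 markers was 278 to 292 in IL-10 Tconv, 65.8 to 73.5 in IL-10 Treg, 10.9 to 15.4 in IFN-γ Tconv and 6.64 to 12.2 in IFN-γ Treg. Sparc (chr11:55394500-55423183, minus strand), which encodes a collagen-binding matrix protein, was at 1.03, 2.96, 3.68 and 5.28 TPM in IFN-γ Treg, 0.56, 1.62, 1.84 and 2.19 in IFN-γ Tconv, 5.06, 5.87, 6.05 and 6.99 in IL-10 Treg and 25.6, 29.1, 30.5 and 33.6 in IL-10 Tconv. The IL-10 groups did not overlap and the IFN-γ groups did, and the difference of differences was 2.85 ± 0.40 (SE; limma adjusted p = 0.000206). Col1a1, the main chain of type I collagen, was at 0.19, 0.2, 0.2 and 0.44 TPM in IFN-γ Treg, 0.43, 0.65, 0.7 and 0.95 in IFN-γ Tconv, 5.44, 5.68, 6.48 and 6.75 in IL-10 Treg and 33.05, 33.7, 34.1 and 35 in IL-10 Tconv, with 1.88 ± 0.18 (SE; limma adjusted p = 1.1e-05). The contractile gene Acta2 had 53.8 to 56.2 TPM in IL-10 Tconv, 7.46 to 12.2 in IL-10 Treg and at most 1.46 TPM in any IFN-γ library, with 2.26 ± 0.40 (SE; limma adjusted p = 0.00116), lost in 1 of 11 settings. Col12a1 (1.89), Col1a2 (1.71; lost in 1 of 11 settings), Loxl2 (1.6; lost in 1 of 11 settings) and Ccn1 (1.59) were also higher, each lower in IL-10 Treg than in IL-10 Tconv without overlap. Postn, listed at 0 in all IFN-γ Treg libraries and at no more than 0.11 TPM in IFN-γ Tconv, was at 0.86, 1.08, 1.13 and 1.3 TPM in IL-10 Treg and 5.67, 5.76, 5.88 and 6.45 in IL-10 Tconv. Apart from Sparc and Ccn1, these genes did not exceed 1.46 TPM in any IFN-γ library, which leaves little room to detect a difference there at this depth. Cnn1 was at 0 in every IFN-γ library of both groups, and Lum and Myl9 in all IFN-γ Treg libraries. Over the 93 called genes with the larger difference under IL-10, 67 were higher and 26 lower, and 48 of the 93 had a mean under 1 TPM in both IFN-γ groups. Low levels also occurred under IL-10. Of the 557 genes tested with means under 1 TPM in both IFN-γ groups, 49 were called. Of the 877 with such means in both IL-10 groups, 108 were called, and their values mostly restate the IFN-γ difference.

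A few positive genes came from the IFN-γ side instead. Rtkn was at 3.61, 3.65, 6.96 and 8.13 TPM in IFN-γ Treg, 0.67, 1.37, 1.77 and 2.52 in IFN-γ Tconv, 2.1 to 3.15 in IL-10 Treg and 3.08 to 4.75 in IL-10 Tconv, and its difference of differences was 1.73 ± 0.37 (SE; limma adjusted p = 0.00549). Oplah, an enzyme of glutathione recycling, was at 2.93, 2.99, 6.13 and 9.48 TPM in IFN-γ Treg and 1.06, 1.55, 1.6 and 2.69 in IFN-γ Tconv, with 1.54 ± 0.37 (SE; limma adjusted p = 0.0116). Both separated under IFN-γ and overlapped under IL-10. Rcn3 differed mainly under IL-10, with 1.06 to 1.88 TPM in IL-10 Treg and 4.02 to 8.06 in IL-10 Tconv, and had 1.89 ± 0.47 (SE; limma adjusted p = 0.0122).

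Few markers of T cells and B-lineage cells were called. Of 23 T cell markers 1 was called (4.35%, under the 13.7% of all genes tested), Trbc2 (lower, -0.64; lost in 11 of 16, 7 of 11 settings). Trac (-0.53) and Cd4 (0.15) were not called. The median of the 23 was -0.38, with 18 values below 0 and 5 above. Their median Treg-minus-Tconv difference was 0.16 under IFN-γ and 0.49 under IL-10. Of 15 Treg markers 2 were called (13.3%, close to that of all genes). Tigit was lower (-0.99, lost in 9 of 16, 3 of 11 settings) and Lrrc32 higher (1.2). Lrrc32 had means of 4.27 TPM in IFN-γ Treg and 2.67 in IFN-γ Tconv, but 2.1 in IL-10 Treg and 3.98 in IL-10 Tconv. Ctla4 (-0.67) and Il2ra (-0.40) were not called. The median of the 15 was -0.40, with 10 values below 0 and 5 above. Of 10 B cell markers, 2 were called (20%), both lower: Igkc, the kappa light chain constant gene, and Ighm, the mu heavy chain gene. Igkc was at 24.6, 28.6, 32.2 and 33.05 TPM in IL-10 Treg and 7.4, 10.99, 13.7 and 14.2 in IL-10 Tconv, without overlap, and at 36.9, 40.02, 50.6 and 64.8 in IFN-γ Treg and 31.2, 59.02, 60.5 and 64.8 in IFN-γ Tconv, which overlapped. Its difference of differences was -1.38 ± 0.32 (SE; limma adjusted p = 0.00935), and that of Ighm was -0.99 ± 0.15 (SE; limma adjusted p = 0.000318). Cd79b (-0.06), which marks B cells themselves, was not called. The median of the 10 B cell markers was -0.19, with 7 values below 0 and 3 above. Of the most negative genes, 3 were immunoglobulin variable genes listed at 0 in whole groups. Igkv15-103 had 3.42, 8.08, 9.71 and 10.2 TPM in IL-10 Treg, and of the other 12 libraries 11 were at 0 and 1, in IL-10 Tconv, at 0.91 TPM. Ighv7-1 had 2.94, 4.7, 6.48 and 7.69 TPM in IL-10 Treg and 0 in the other 12. Igkv16-104 had 5.04, 5.08, 6.1 and 6.67 TPM in IL-10 Treg, 0 in IL-10 Tconv and IFN-γ Treg, and 3.59, 1.63 and 2 values of 0 in IFN-γ Tconv. All 3 passed the filter on low values only with the IL-10 Treg libraries. Their values mostly restate the IL-10 differences of 2.75, 2.545 and 2.66, are given as a description and support nothing. The B cell markers summed to 57.7 to 67.1 TPM in IL-10 Treg, 22.3 to 34.0 in IL-10 Tconv and 87.5 to 136 over both IFN-γ groups. Whether RNA of engulfed or attached cells contributed was not tested.

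**Figure D4:**
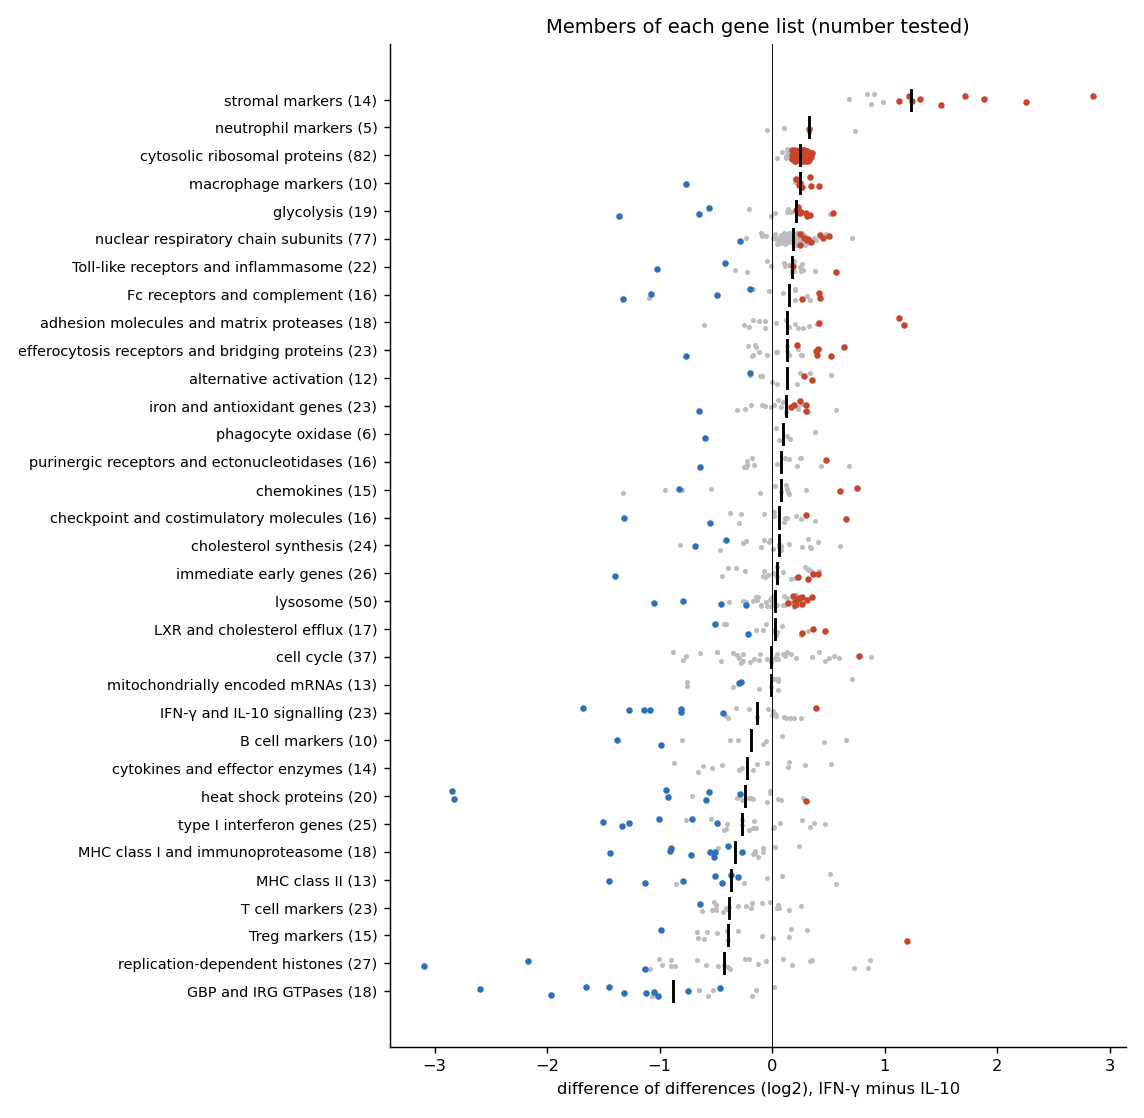
Each row is a gene list with the number of members tested, ordered by median; each point is a member's difference of differences in log2 units, red if called higher, blue if called lower and grey if not called, and the black bar is the median. Lists with fewer than 5 members tested are left out. GBP and IRG GTPases have the most negative median (-0.88), stromal markers, most of them under 1 TPM in both IFN-γ groups, the most positive (1.23), and ribosomal protein genes form a tight group at 0.25.

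Members of other lists were called in both directions. Of 12 alternative activation genes 3 were called (25%): the mannose receptor Mrc1 (0.36) and Trem2 (0.28) were higher and Fcgr2b lower (-0.20; lost in 7 of 16, 3 of 11 settings). Of 23 iron and antioxidant genes 6 were called (26.1%): 5 were higher, the ferritin chains Fth1 (0.16; lost in 2 of 11 settings) and Ftl1 (0.20; lost in 2 of 11 settings) among them, and the iron transporter Slc11a2 was lower (-0.65; lost in 9 of 16, 1 of 11 settings). Of 22 Toll-like receptor and inflammasome genes 4 were called (18.2%). Aim2, a sensor of cytosolic DNA, was lower (-1.03), as was the pore protein Gsdmd (-0.42), and Tlr1 (0.57; lost in 9 of 16) and Ninj1 (0.19; lost in 10 of 16, 5 of 11 settings) were higher. Of 6 subunits of the phagocyte oxidase 1 was called (16.7%), Ncf1 (lower, -0.60), and the catalytic subunit Cybb (0.16) was not called. Of 16 purinergic genes 2 were called (12.5%): the nucleotide receptor P2ry6 was higher (0.48) and the ectoenzyme Bst1 lower (-0.64). Of 18 adhesion and matrix protease genes 3 were called (16.7%), Itgam (0.42), Timp3 (1.12; lost in 1 of 10 settings) and Mmp2 (1.17; lost in 10 of 16, 1 of 10 settings), all higher, and Vcam1 (-0.61) was not called. Timp3 and Mmp2 had means under 1 TPM in both IFN-γ groups and passed the filter through IL-10 libraries, so their values mostly restate the IL-10 differences of -1.29 and -1.41; neither was called with a pseudocount of 0.1. Of 5 neutrophil markers tested 1 was called higher (20%), Csf3r (0.33, lost in 1 of 11 settings). Of 3 dendritic cell markers 1 was called lower (33.3%), Clec9a (-1.38, lost in 14 of 16, 3 of 10 settings). Clec9a had means under 1 TPM in both IL-10 groups, so its value mostly restates the IFN-γ difference. It was not called with a pseudocount of 0.1. None of 3 erythroid markers was called by limma, and 1 had an unadjusted p under 0.05.

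Of the called genes above that no left-out library ended, settings without a replicate block ended these. Without scaling, Hspa5, Dusp1, Ier2, Pkm, Csf3r, Fth1 and Ftl1 were not called. With a pseudocount of 0.1, Acta2, Col1a2, Loxl2, Timp3, C2, Gbp2b and Myl9 were not called. Without a filter on low values Ccdc73, Fth1 and Ftl1 were not. After the correction for GC content and length, mt-Co1 and Npc2 were not called.

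Leaving out 1 library put 29 of the called genes named above past an adjusted p of 0.05 in at least 1 of the 16 fits. Their highest limma adjusted p came without IFN-γ Tconv BV421-2 for H2-Ab1 (0.102), Ifit2 (0.064), Cfb (0.102), Hsph1 (0.0656), Dnajb1 (0.0982), mt-Atp8 (0.0695), Acp2 (0.0687), Insig1 (0.068), Fcgr2b (0.0759) and Slc11a2 (0.071). Without IL-10 Tconv Ax647-2 the highest was reached by Cxcl2 (0.0615), C3 (0.0618), Junb (0.0595), Itgb5 (0.0587) and Ninj1 (0.101). Without IL-10 Treg Ax647-2 the highest was reached by Aurka (0.0856), Tpi1 (0.0706), Laptm5 (0.0828) and Clec9a (0.0822). Without IL-10 Treg BV421-1 the highest was reached by Ifi47 (0.0714), Cfp (0.064) and Tlr1 (0.0647). Without IL-10 Tconv BV421-1 the highest was reached by Ier3 (0.0546), Trbc2 (0.102) and Mmp2 (0.0629). Without IL-10 Tconv BV421-2 the highest was reached by Rfx5 (0.107) and Tigit (0.0752). Without IL-10 Treg BV421-2 the highest was reached by Mx2 (0.069). Without IL-10 Tconv Ax647-1 the highest was reached by Nceh1 (0.0728). In the other direction, Foxp3 (0.0219 without IFN-γ Tconv BV421-2), Vcam1 (0.0102 without IFN-γ Tconv BV421-1), Trac (0.0379 without IL-10 Treg Ax647-1), B2m (0.0131 without IFN-γ Treg BV421-2), Ctla4 (0.0219 without IFN-γ Treg Ax647-1), Fos (0.023 without IFN-γ Tconv BV421-1) and Ifngr1 (0.0187 without IFN-γ Treg Ax647-1) were not called in the full fit but passed in at least 1 fit without a library (limma adjusted p).

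The called genes differed in transcript features that the comparison did not use. Called lower genes had a median transcript length of 2000 nt and a median GC content of 48.6%, called higher genes 1209 nt and 53.3%, and all genes tested 1613 nt and 50.6%. A transcript annotated as retaining an intron was present for 77.4% of protein-coding lower genes, 55.4% of higher genes and 60.8% of all. The correction for GC content and length left 1684 genes called, of which 1420 were among the 1771.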

How the data were processed

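PolyA RNA libraries (NEBNext Ultra II Directional) of 28 macrophage samples were deposited as 1 table of TPM values per library, per the file headers; these give each gene's share of a library's transcripts after division by length, for 55487 gene IDs. STAR, RSEM and the mm10 build are named, per the submitters' processing notes; versions and annotation are not given in the sources used here. TPM is relative within a library, so a change in abundant genes shifts all others. TPM holds no read totals. The relative depths come from single-transcript genes, where 88.6% to 91.9% of low values lay within 0.15 of a whole read (30% by chance), and are approximate.

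Samples were grouped by their labels. The deposited TPM values of the 16 libraries were divided by a trimmed-mean scaling factor and taken to log2 after adding 1, so differences of low genes are understated. A gene was tested if 4 or more of the 16 libraries reached 1 TPM, which left 12918. limma 3.58.1 (R 4.3.3, moderated with an intensity trend) fitted 1 mean per group, and p-values of the difference of differences were adjusted by Benjamini-Hochberg over all genes tested. Genes under 0.05 are called. The main fit was tested on simulated data with normal noise, of the same SD for all genes of a group. The alternative fits were not tested on simulated data. No 2 libraries held identical values.

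Genes named were the 12 largest in each direction with a mean of at least 5 TPM in their highest group and no predicted or pseudogene name, up to 3 called members per direction of each gene list, and 24 chosen genes; some of these are not reported here. The members and lists were chosen with earlier results of these data known, and other list members printed were picked after their values were seen. Promoters are RefSeq (GRCm38.p6), matched by symbol. Promoters of Gbp2, Gbp4, Ciita, Nlrc5, Col1a1 and Hist1h2bg were not used here.

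The 34 alternatives cover scaling, pseudocount, filters, variance weights, all 28 libraries in 1 model, replicate block, dye, GC and length, and each library left out in turn.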

Additional observations from a re-analysis of the deposited data

Results flagged for a closer look

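The difference of differences is itself a test of whether an effect differs between 2 groups, and 1771 genes passed it. In addition, 496 groups of 4 values (124 named genes in 4 groups) were searched for a library that stood apart, with a gap to its nearest neighbour of over 0.829 of the group's range, which chance gives in about 1 group in 20. It was met 31 times, and each value below is that share of the range.

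In the IFN-γ Tconv group, replicate BV421-2 stood apart in 6 genes: low in Igkc (0.891; 31.2 TPM), Trac (0.83; 54.0 TPM), Abca1 (0.836; 10.3 TPM) and Pf4 (0.877; 123.6 TPM), high in Fcgr2b (0.869; 211.7 TPM), and alone above 0 in Loxl2 (1; 0.2 TPM). BV421-1 was low in Hif1a (0.843; 36.1 TPM). Ax647-1 was low in Insig1 (0.869; 26.8 TPM) and alone above 0 in Postn (1; 0.11 TPM).

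In IFN-γ Treg, BV421-1 was alone above 0 in Ccdc73 (1; 3.24 TPM) and low in H2-Oa (0.91; 2.33 TPM). BV421-2 was low in Gbp9 (0.96; 5.74 TPM), Ier2 (0.838; 51.3 TPM) and Ccn1 (0.853; 0.65 TPM) and high in Ninj1 (0.843; 883 TPM). Ax647-1 was low in Trem2 (0.893; 1022 TPM), high in Col1a1 (0.91; 0.44 TPM) and alone above 0 in Loxl2 (1; 0.22 TPM). Ax647-2 was low in Pf4 (0.897; 153 TPM).

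In IL-10 Treg, Ccdc73 (0.877) and Rtkn (0.86) were low in BV421-1 and BV421-2, Klf6 (0.859) was low in Ax647-2, Hif1a (0.945) was high in BV421-2, and Ctsl (0.931) and Nectin2 (0.909) were high in Ax647-1. In IL-10 Tconv, Nlrc5 (0.932) was high and Aim2 (0.829) and Oplah (0.873) low in Ax647-2, which alone was above 0 in Igkv15-103 (1). P2ry6 (0.895) was low in Ax647-1, and Col12a1 (0.842) was low in BV421-2.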

How the results depend on the processing

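The count of 1771 called genes stayed within 1.5 times of itself in 31 of the 34 alternatives. It was 457 with a required size of 1 on the log2 scale, 2 with the BV421 libraries alone and 280 with the Ax647 libraries alone; each of the last 2 has 2 libraries per group. Leaving out 1 library gave 1405 to 2080. A pseudocount of 0.1 gave 1645 and one of 5 gave 1821, no filter 1681 and a filter of 5 TPM 1647. mt-Atp8 turned from -0.28 to 0.33 after the GC and length correction, with or without the replicate block, and was called in neither (limma adjusted p = 0.109 and 0.0942). Deviations of Treg and Tconv libraries with the same number had correlations of -0.03 to 0.03 over all genes, with 4 pairs per cytokine. Under IFN-γ 2 of 4 Treg libraries were closest to the Tconv library of their own number, and under IL-10 0 of 4. So few pairs cannot settle whether the numbers mark pairs. With a replicate block by title numbers within each cytokine the count was 1414, by library names 1485. Of 156 called genes examined singly, 45 were not called under at least 1 of the 4 fits with a block. For 11 of these, none of the 11 settings named above ended the call. They were Vsir, Eno1 and Ier3 (lost in 2 of 4 block fits) and Nsdhl, Bst1, Pfkfb3, Gbp6, H2-T22, Tlr1, Pgam1 and Cox6a2 (lost in 1 of 4). The difference of scaling factors was -0.07, or -0.12 by median of ratios, and the median of all genes moved from 0.0038 to -0.06 without scaling and 0.04 with median of ratios. The depth of the IFN-γ libraries, at most 24.2% of the deepest, limits what could be detected there.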
